A study of Mus musculus with 23 samples.

Results

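The lateral entorhinal cortex (LEC) was set against the medial entorhinal cortex (MEC) by the enhancer regions that carry H3K27ac in each. Acetylation of lysine 27 of histone H3 (H3K27ac) marks active enhancers and promoters. On the 19 autosomes the LEC H3K27ac enhancer list held 22461 regions and the MEC list 10709. LEC-only regions were the 16535 LEC enhancer regions that overlapped no region of the full MEC H3K27ac list. MEC-only regions were the 3410 MEC enhancer regions that overlapped no region of the full LEC H3K27ac list. Common regions, which overlapped between the enhancer lists by at least 1 bp, numbered 5786 counted in LEC and 6026 counted in MEC. Together the lists held 33170 regions on the autosomes, while the H3K27ac enhancer lists of the whole series held 86105 on all chromosomes. The members were chosen by the H3K27ac region positions of LEC and MEC, so the sizes of these sets are a description and have no test.

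All groups were C57BL6J cortex at postnatal day 56, dissected from both hemispheres of unstained sections 500 µm thick. H3K27ac was profiled in 2 libraries each of LEC, MEC, anterior cingulate cortex (ACC) and retrosplenial cortex (RSC). Dimethylation of lysine 4 of histone H3 (H3K4me2) was profiled in 2 libraries each of LEC, ACC and RSC and in 1 of MEC. The labels name no treatment, and do not say whether replicate libraries are from different animals. Dissected cortex mixes neurons and glia, so a mark in more cells and a stronger mark per cell cannot be told apart. Each subregion and mark had 1 list of regions that the authors name reproducible, with no values per library and no depth. No test across animals was therefore possible, and every range in brackets is a Wilson 95% interval that covers counting error only. A subregion's full list also held regions that the authors left out of its enhancer list by a rule the sources do not give; these are called excluded regions.

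The entorhinal cortex is the main gateway between the neocortex and the hippocampus. MEC is known for grid cells and other cells tuned to the animal's position, and LEC for responses to objects, odours and their place in an episode. RSC and ACC are midline cortical areas. H3K4me2 lies at active as well as inactive regulatory regions, so a region with H3K4me2 and no H3K27ac is often described as a primed enhancer. The enhancers of an area are of interest as switches that could drive gene expression in that area alone, the subject of the series. Regions are given by position in mm9, and no gene is named at them, because the gene table at hand is for another build. For the same reason the labelled tissues were not checked against marker genes.

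Most LEC enhancer regions had no H3K27ac region in MEC, whereas most MEC enhancer regions had one in LEC. LEC-only regions made up 73.6% (73.04 to 74.2) of the LEC list, and MEC-only regions 31.8% (30.97 to 32.7) of the MEC list. Common regions were 25.8% (25.2 to 26.3) of the LEC list and 56.3% (55.3 to 57.2) of the MEC list. A further 140 LEC enhancer regions, or 0.623%, met a MEC excluded region alone, against 1273 MEC enhancer regions, or 11.9% (11.3 to 12.5), that met an LEC excluded region alone. In bases, LEC-only regions covered 39.6 Mb, or 59.7% of the LEC list, and MEC-only regions 7.93 Mb, or 26.97% of the MEC list. The bases in both enhancer lists came to 15.5 Mb, which was 23.4% of the LEC bases and 52.8% of the MEC bases. The list lengths differed with these shares, at 41019 autosomal regions in the full LEC list and 22229 in the full MEC list.

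**Figure D1:**
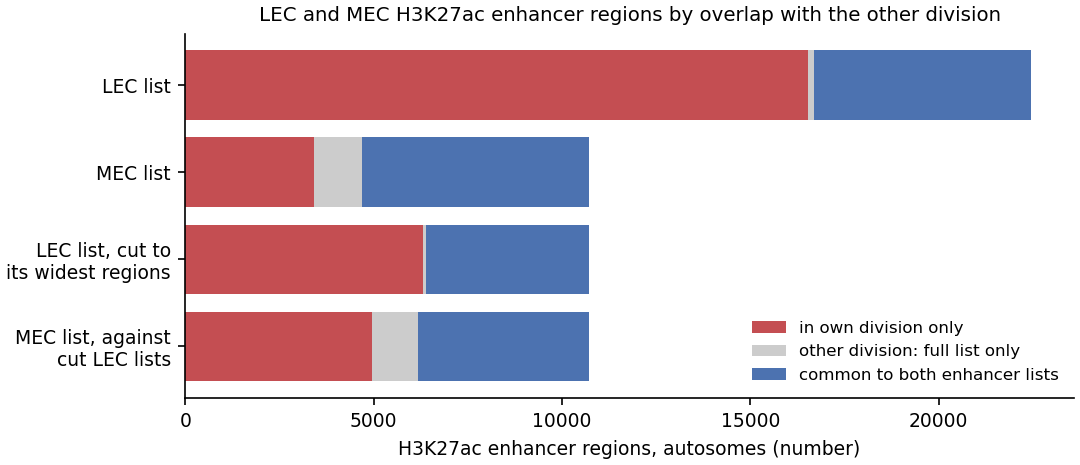
Each bar gives the number of H3K27ac enhancer regions of a list on the autosomes, split by their overlap with the other division, for the lists at their deposited length (top pair) and with the LEC lists cut to the MEC length (bottom pair). The LEC bar is mostly LEC-only, with 16535 regions of 22461. In the MEC bar 3410 of 10709 regions are MEC-only, and after the cut 6307 LEC-only and 4942 MEC-only regions remain in bars of equal length; 90 MEC regions that the cut placed in both sets are drawn as MEC-only.

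The limit of 1 bp decided few regions. Among regions that met the other division, 9 of 5926 LEC regions and 9 of 7299 MEC regions did so by at most 100 bp, the smallest overlap being 25 bp in each. Just outside the limit, 8 of 16535 LEC-only and 9 of 3410 MEC-only regions lay within 100 bp of a full-list region of the other division, the nearest touching it without an overlap. Most members were farther off. The median gap was 25.6 kb between an LEC-only region and the nearest full-list MEC region, and 17.1 kb between a MEC-only region and the nearest full-list LEC region. Beyond 50 kb lay 31.7% (31.004 to 32.4) of LEC-only and 26.3% (24.8 to 27.8) of MEC-only regions.

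Regions found in 1 division were narrower than common ones. LEC-only regions had a median width of 1925 bp, against 3400 bp for the common regions of the LEC list. MEC-only regions had a median of 1850 bp, against 2250 bp for the common regions of the MEC list. The share in 1 division was lower in wider regions of both lists. A wider region has more room to overlap a region of the other list, and the part of this in the differences was not tested. Of LEC regions under 1000 bp, 95.3% (94.1 to 96.2) were LEC-only, and of those of 4000 bp or wider 45.7% (44.2 to 47.1). In MEC the share was 43.0% (40.2 to 45.8) under 1000 bp and 21.2% (19.4 to 23.1) at 4000 bp or wider. In each of the 4 width classes LEC regions were without an H3K27ac region in the other division more often than MEC regions.

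**Figure D2:**
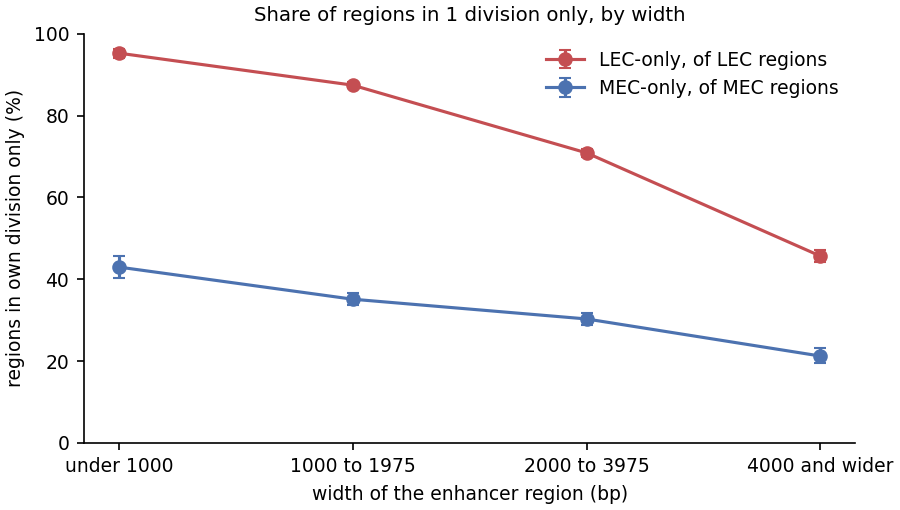
The share of enhancer regions in their own division only (y, %) is given for 4 classes of region width (x, bp), for LEC-only regions as a share of LEC regions and MEC-only regions as a share of MEC regions; bars are Wilson 95% intervals. The LEC line runs from 95.3% in the narrowest to 45.7% in the widest class and stays above the MEC line, which runs from 43.0% to 21.2%.

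The comparison was repeated with the LEC lists cut to the MEC length. The widest 10709 LEC enhancer regions reached down to 2275 bp, where 16 of 158 regions of that width were kept in genome order, and the widest 22229 regions of the full LEC list reached down to 2375 bp. The lists then divided more evenly. LEC-only regions numbered 6307, or 58.9% (57.96 to 59.8) of the cut list, and MEC-only regions 4942, or 46.1% (45.2 to 47.1). The cut removed 10228 LEC-only regions and 1467 common ones from the LEC list, and made 1532 further MEC regions MEC-only. Those 1532 overlapped regions of the deposited full LEC list that the cut removed, and a shorter LEC list can only add MEC-only regions. Common regions came to 4319 in LEC and 4614 in MEC. The cut changed the widths together with the length: the LEC-only regions kept had a median of 3300 bp, and the MEC-only regions a median of 1775 bp.

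Where both divisions carried an enhancer region, the LEC region was usually the wider and often held the whole MEC region. The common regions formed 6133 overlapping pairs, 5301 of which were a single LEC region with a single MEC region. In these the median width was 3300 bp in LEC and 2200 bp in MEC, with a median LEC to MEC ratio of 1.41 and quartiles of 1.03 and 2.14. The LEC region was wider in 4033 pairs, or 76.1% (74.9 to 77.2), the MEC region in 1214, and the widths were equal in 54. The MEC region lay wholly inside the LEC region in 3128 pairs, or 59.0%, and the LEC region wholly inside the MEC region in 699, or 13.2%. Widths in the divisions went together only loosely, with a Spearman rho of 0.42 over the 5301 pairs, given as a description because all pairs come from the same pair of lists. Of the common regions, 298 LEC regions spanned more than 1 MEC region, and 96 MEC regions spanned more than 1 LEC region.

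The pairs with the most shared bases were broad in both divisions and in the midline areas. At chr8:67111851-67148700 the LEC region was 28.7 kb wide and lay inside a MEC region of 36.9 kb, while full H3K27ac lists covered 32.3 kb of that span in ACC and 31.4 kb in RSC. At chr2:44897626-44931350 the LEC region was 22.2 kb and the MEC region 33.7 kb wide, and ACC and RSC covered the whole span. At chr6:135837601-135870750 the LEC region, of 32.2 kb, was wider than the MEC region of 22.2 kb. H3K4me2 covered less of all 3 spans in each subregion, at 7.60 kb in LEC and 2.93 kb in MEC on chromosome 8, 15.3 kb and 1.55 kb on chromosome 2, and 17.98 kb and 2.23 kb on chromosome 6.

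The most unequal pairs showed how far widths could part. At chr12:105295326-105306625 an LEC region of 11.3 kb held a MEC region of 625 bp, and at chr17:56626126-56636400 an LEC region of 10.3 kb held one of 650 bp. In the other direction, LEC had a region of 1175 bp inside a MEC region of 14.9 kb at chr17:80473951-80488825, and one of 1550 bp inside a MEC region of 13.95 kb at chr12:51209926-51223875. Such pairs count as common under the rule although the paired regions differed widely in width.

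ACC and RSC were then read over each set, since their lists played no part in choosing it. LEC-only regions were found in ACC more often than in RSC, and MEC-only regions in RSC more often than in ACC. The full ACC H3K27ac list overlapped 70.7% (70.03 to 71.4) of LEC-only regions and 75.5% of all LEC enhancer regions. The full RSC H3K27ac list overlapped 48.9% (48.2 to 49.7) of LEC-only regions and 59.4% of all LEC enhancer regions. Over MEC-only regions the ACC list reached 51.5% (49.8 to 53.2), against 77.6% of all MEC enhancer regions. The RSC list reached 61.03% (59.4 to 62.7) of MEC-only regions, against 80.3% of all MEC enhancer regions. The ACC share minus the RSC share was 21.8 percentage points over LEC-only regions (20.96 to 22.6, a paired Wald 95% interval for counting error) and -9.50 over MEC-only regions (-11.2 to -7.84).

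In common regions the intervals of ACC and RSC overlapped. ACC overlapped 88.8% (87.96 to 89.6) of the common LEC regions and RSC 88.7% (87.8 to 89.5), and over the common MEC regions the values were 88.9% (88.1 to 89.7) and 88.5% (87.7 to 89.3). In neither midline area were 167 of 5786 common LEC regions and 172 of 6026 common MEC regions.

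Sorted by both lists at once, 6952 LEC-only regions, or 42.04% (41.3 to 42.8), were in ACC and RSC, against 52.1% of all LEC enhancer regions. In ACC and not RSC were 4743, or 28.7% (28.0 to 29.4), against 23.3% of all. In RSC and not ACC were 1138, or 6.88% (6.51 to 7.28), against 7.27% of all, a share near that of the whole list. LEC-only regions make up most of that list, and among common LEC regions the share was 8.31% (7.63 to 9.05). In neither were 3702 LEC-only regions, or 22.4% (21.8 to 23.03), against 17.2% of all. Among MEC-only regions 1488, or 43.6% (41.98 to 45.3), were in ACC and RSC, against 69.5% of all MEC enhancer regions. In RSC and not ACC were 593, or 17.4% (16.2 to 18.7), against 10.8% of all. In ACC and not RSC were 269, or 7.89% (7.03 to 8.84), against 8.10% of all. In neither were 1060, or 31.1% (29.6 to 32.7), against 11.6% of all.

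**Figure D3:**
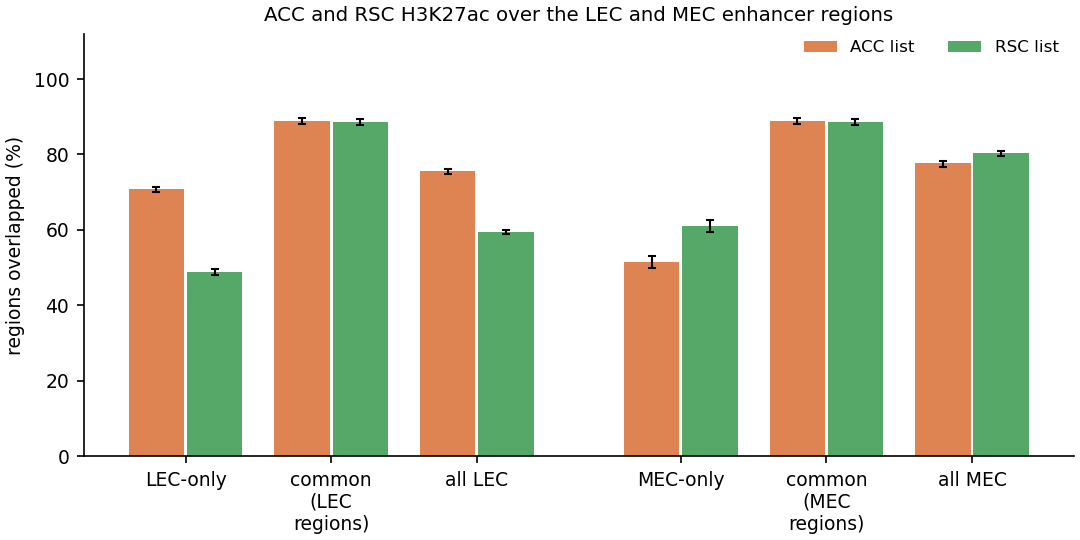
Bars give the percentage of regions in each set (x) that overlap the full H3K27ac list of ACC or RSC (y, %), with Wilson 95% intervals. ACC stands above RSC over LEC-only regions (70.7% and 48.9%), RSC above ACC over MEC-only regions (61.03% and 51.5%), and the intervals overlap over the common regions.

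List length and region width moved with these shares. The full ACC list held 46928 regions on the autosomes and the full RSC list 40399. With the ACC list cut to its widest 40399 regions, an added alternative, ACC overlapped 63.7% of LEC-only and 45.3% of MEC-only regions, so that the difference from RSC was 14.7 points over LEC-only regions and -15.7 over MEC-only regions. At matched widths of 2000 to 3975 bp, ACC overlapped 76.6% (75.5 to 77.6) and RSC 56.01% (54.7 to 57.3) of LEC-only regions. In that width class ACC overlapped 54.9% (52.01 to 57.7) and RSC 65.3% (62.6 to 67.97) of MEC-only regions. With the LEC lists cut to the MEC length, ACC overlapped 81.2% (80.2 to 82.2) and RSC 62.5% (61.3 to 63.7) of the LEC-only regions kept, against 85.5% and 74.3% of the whole cut list. MEC-only regions were then overlapped by ACC in 60.6% (59.2 to 61.96) and by RSC in 67.4% (66.1 to 68.7) of cases.

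H3K4me2 was read over the same sets. At the deposited list lengths, LEC-only regions mostly carried H3K4me2 of their own division, and MEC-only regions mostly did not. The full LEC H3K4me2 list overlapped 59.1% (58.4 to 59.9) of LEC-only regions, against 63.0% of all LEC enhancer regions. The full MEC H3K4me2 list overlapped 19.9% (18.6 to 21.3) of MEC-only regions, against 35.5% of all MEC enhancer regions. Common regions carried their own H3K4me2 more often, at 74.3% (73.2 to 75.4) in LEC and 43.2% (41.9 to 44.4) in MEC. The full MEC H3K4me2 list came from 1 library, and its regions had a median width of 1275 bp against 1950 bp in LEC. The part of the single library in the low MEC shares was not tested. With the LEC H3K4me2 list cut to the 28770 widest regions, the length of the MEC list and an alternative added later, it overlapped 34.9% of LEC-only and 11.6% of MEC-only regions.

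The H3K4me2 lists of the midline areas overlapped a smaller share of MEC-only regions than of all MEC enhancer regions. The RSC H3K4me2 list overlapped 38.7% (37.03 to 40.3) of MEC-only regions, against 64.3% of all MEC enhancer regions, and the ACC list 34.6% (32.997 to 36.2), against 65.7% of all. Over LEC-only regions the ACC H3K4me2 list reached 62.2% (61.5 to 62.9), against 66.9% of all LEC enhancer regions, and the RSC list 46.6% (45.9 to 47.4), against 54.5% of all. The order of ACC and RSC in H3K4me2 was therefore the same as in H3K27ac in either set. No H3K4me2 list of the 4 subregions overlapped 3865 LEC-only regions, or 23.4% (22.7 to 24.03). The share was 19.3% of all LEC enhancer regions and 7.78% (7.1 to 8.5) of common LEC regions. None of these lists overlapped 1681 MEC-only regions, or 49.3% (47.6 to 50.97). The share was 21.1% of all MEC enhancer regions and 8.36% (7.69 to 9.09) of common MEC regions. All 4 lists overlapped 1781 LEC-only regions, or 10.8%, against 16.4% of all, and 282 MEC-only regions, or 8.27%, against 23.4% of all.

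**Figure D4:**
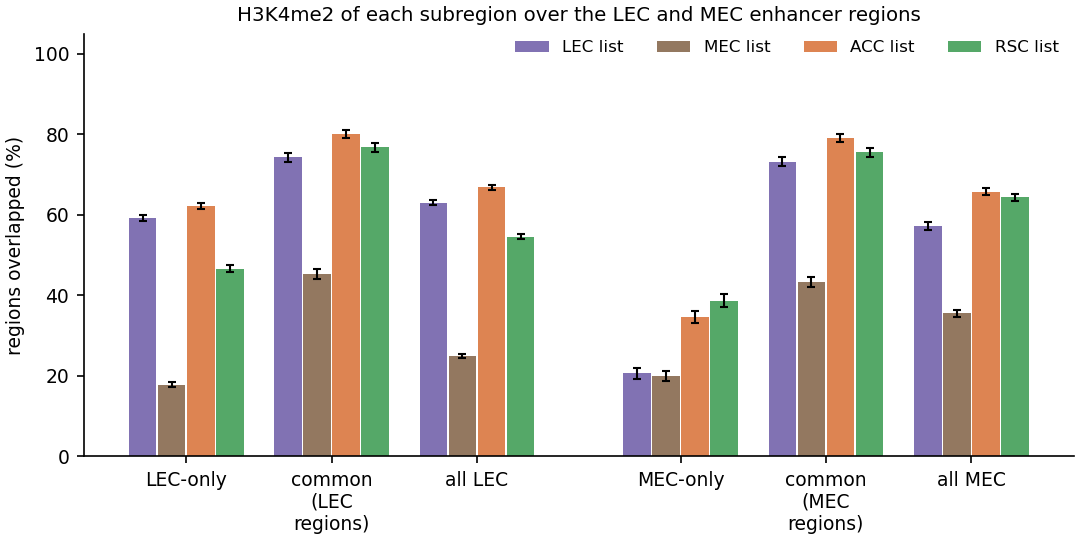
Bars give the percentage of regions in each set (x) that overlap the full H3K4me2 list of LEC, MEC, ACC or RSC (y, %), with Wilson 95% intervals. Over MEC-only regions the bars run from 19.9% to 38.7%. Over the common regions the LEC, ACC and RSC bars run from 73.2% to 80.2%, while the MEC bars, from 1 library, reach 45.2% of the LEC regions and 43.2% of the MEC regions.

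A region with H3K27ac in 1 division could still carry H3K4me2 in the other. MEC H3K4me2 lay on 17.7% (17.2 to 18.3) of LEC-only regions, against 24.9% of all LEC enhancer regions, and on 45.2% (43.9 to 46.5) of the common LEC regions. LEC H3K4me2 lay on 20.6% (19.2 to 21.9) of MEC-only regions, against 57.2% of all MEC enhancer regions, and on 73.2% (72.03 to 74.3) of the common MEC regions. Taken jointly, 7325 LEC-only regions, or 44.3% (43.5 to 45.1), had H3K4me2 of LEC and not MEC, against 41.8% of all. H3K4me2 of MEC and not LEC was on 480 of them, or 2.90% (2.66 to 3.17), against 3.70% of all. Of the MEC-only regions 305, or 8.94% (8.03 to 9.95), had H3K4me2 of MEC and not LEC, against 6.70% of all. H3K4me2 of LEC and not MEC was on 328 of them, or 9.62% (8.67 to 10.7), against 28.4% of all. The intervals of these last shares, for MEC alone and LEC alone over MEC-only regions, overlapped. These shares used lists of unequal length. Cut to the length of the MEC list, the LEC H3K4me2 list overlapped 11.6% (10.6 to 12.8) of MEC-only regions. The MEC list overlapped 19.9% (18.6 to 21.3).

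The lower H3K4me2 shares of LEC-only and MEC-only regions, against common ones, were also found among regions of 2000 to 3975 bp. In narrower LEC regions the intervals for LEC H3K4me2 overlapped, as did those for ACC H3K4me2 under 1000 bp. Under 1000 bp LEC H3K4me2 lay on 39.3% (36.97 to 41.7) of LEC-only and 40.8% (30.4 to 52.0) of common LEC regions. At 1000 to 1975 bp the shares were 54.7% (53.5 to 55.9) and 58.3% (55.1 to 61.4). RSC H3K4me2 under 1000 bp lay on 29.8% (27.6 to 32.1) and 43.4% (32.9 to 54.6), without an overlap. Among regions of 2000 to 3975 bp, RSC H3K4me2 lay on 49.6% (48.3 to 50.9) of LEC-only and 73.7% (71.9 to 75.4) of common LEC regions, and on 38.4% (35.7 to 41.2) of MEC-only and 76.3% (74.5 to 77.98) of common MEC regions. H3K4me2 of the other division lay on 18.1% (17.1 to 19.1) of LEC-only and 44.02% (42.03 to 46.03) of common LEC regions, and on 18.5% (16.4 to 20.8) of MEC-only and 73.2% (71.4 to 75.01) of common MEC regions. H3K4me2 of the same division lay on 63.5% (62.2 to 64.7) of LEC-only and 71.8% (69.9 to 73.6) of common LEC regions, and on 19.3% (17.2 to 21.7) of MEC-only and 42.5% (40.5 to 44.5) of common MEC regions. In LEC-only regions the share with LEC H3K4me2 grew with width, and was 39.3% (36.97 to 41.7) under 1000 bp and 77.6% (75.7 to 79.3) at 4000 bp or wider. In MEC-only regions the share with MEC H3K4me2 was 16.5% (13.5 to 19.9) under 1000 bp and 21.03% (17.3 to 25.3) at 4000 bp or wider. With the LEC H3K27ac lists cut to the MEC length, LEC H3K4me2 lay on 69.02% (67.9 to 70.1) of the LEC-only regions kept, against 73.2% of the whole cut list. MEC H3K4me2 lay on 19.2% of them, against 30.5% of the cut list. ACC H3K4me2 lay on 71.8% and RSC H3K4me2 on 54.7%, against 76.6% and 64.8% of the cut list. Over the MEC-only regions of that comparison, MEC H3K4me2 lay on 26.6% (25.4 to 27.8), against 35.5% of all MEC enhancer regions. LEC H3K4me2 lay on 33.003% (31.7 to 34.3) of them, against 20.6% of MEC-only regions at full length and 57.2% of all. ACC H3K4me2 lay on 45.9% (44.5 to 47.3) and RSC H3K4me2 on 48.4% (46.99 to 49.8) of them, against 65.7% and 64.3% of all. With MEC-only set against the LEC enhancer list, LEC H3K4me2 lay on 36.7%.

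Regions of 1 division listed in neither midline area were narrower than their whole list and more often without H3K4me2. The 3702 LEC-only regions in neither ACC nor RSC had a median width of 1500 bp, against 2200 bp in the whole LEC list, and the 1060 MEC-only regions in neither had one of 1575 bp, against 2100 bp in the whole MEC list. LEC H3K4me2 lay on 1720 of these LEC regions, or 46.5% (44.9 to 48.1), against 63.0% of all LEC enhancer regions. MEC H3K4me2 lay on 118 of these MEC regions, or 11.1% (9.38 to 13.2), against 35.5% of all MEC enhancer regions. No list of H3K4me2 reached 1592 of the LEC regions, or 43.004% (41.4 to 44.6), against 19.3% of all LEC enhancer regions, and 811 of the MEC regions, or 76.5% (73.9 to 78.96), against 21.1% of all MEC enhancer regions. LEC-only regions that ACC and RSC both carried had LEC H3K4me2 in 65.3% (64.2 to 66.4) of cases, and MEC-only regions that both carried had MEC H3K4me2 in 25.6% (23.5 to 27.9).

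MEC-only regions also lay farther from excluded regions, the class that the authors kept out of the enhancer lists. The ACC excluded regions gave a landmark that was the same for both divisions and was not used by the rule. The median gap to the nearest of the 19734 ACC excluded regions was 27.6 kb for LEC-only regions and 27.7 kb for the common LEC regions. It was 71.95 kb for MEC-only regions and 28.01 kb for the common MEC regions. Of LEC-only regions 35.3% (34.6 to 36.03) were more than 50 kb away, against 35.1% of all LEC enhancer regions, a share near that of the whole list. Of MEC-only regions it was 57.3% (55.6 to 58.9), against 38.2% of all MEC enhancer regions. The RSC excluded regions gave medians of 35.5 kb for LEC-only and 76.5 kb for MEC-only regions. The rule takes out MEC enhancer regions that overlap an LEC excluded region, and the part of that step in these distances was not tested.

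Regions of 1 division carried H3K4me2 less often than common regions at either distance, in LEC as in MEC, by the RSC and LEC H3K4me2 lists. Within 50 kb of an ACC excluded region, RSC H3K4me2 lay on 47.6% (46.7 to 48.6) of LEC-only and 79.9% (78.6 to 81.2) of common LEC regions. Beyond 50 kb it lay on 44.8% (43.6 to 46.1) of LEC-only and 71.01% (69.003 to 72.9) of common LEC regions. Within 50 kb RSC H3K4me2 lay on 47.01% (44.5 to 49.6) of MEC-only regions and 78.6% (77.3 to 79.9) of common MEC regions. Beyond 50 kb it lay on 32.4% (30.4 to 34.5) of MEC-only and 69.9% (67.9 to 71.8) of common MEC regions. LEC H3K4me2 lay on 60.9% (60.02 to 61.9) of LEC-only and 77.2% (75.8 to 78.5) of common LEC regions within 50 kb, and on 55.8% (54.5 to 57.1) and 69.1% (67.1 to 71.1) beyond. It lay on 27.8% (25.6 to 30.2) of MEC-only and 75.8% (74.5 to 77.1) of common MEC regions within 50 kb, and on 15.2% (13.6 to 16.8) and 68.3% (66.3 to 70.2) beyond.

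The sets were spread over all autosomes. The LEC-only share ran from 68.7% (65.6 to 71.7) of LEC regions on chromosome 17 to 77.98% (75.9 to 79.96) on chromosome 2. The MEC-only share ran from 23.8% (20.3 to 27.7) of MEC regions on chromosome 11 to 40.4% (36.2 to 44.8) on chromosome 15. Of 2083 windows of 1 Mb with a member of either set, 1151 held LEC-only and MEC-only regions, 797 LEC-only regions alone and 135 MEC-only regions alone, and MEC-only regions outnumbered LEC-only ones in 289. Members of one set lay near the other less often than common regions did. A MEC-only region lay within 50 kb of 14.2% (13.7 to 14.8) of LEC-only regions, against 18.6% of all LEC enhancer regions and 30.7% (29.5 to 31.9) of the common ones. An LEC-only region lay within 50 kb of 46.5% (44.8 to 48.2) of MEC-only regions, against 64.0% of all MEC enhancer regions and 71.8% (70.6 to 72.9) of the common ones.

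Clusters were chained wherever midpoints of one set were at most 100 kb apart. The 16535 LEC-only regions gave 1060 clusters of at least 5 regions, and the 3410 MEC-only regions gave 87, from sets of unequal size. The largest LEC-only clusters lay at chr3:51301901-52644775 with 49 LEC-only regions, chr5:111452651-112730000 with 44 and chr10:68834626-70012450 with 44. Full H3K27ac lists covered 180.9 kb of the chromosome 3 cluster in LEC and 30.4 kb in MEC, but 239.7 kb in ACC and 139.6 kb in RSC. On chromosome 5 the covered length was 262.1 kb in LEC, 42.03 kb in MEC, 267.1 kb in ACC and 154.7 kb in RSC. On chromosome 10 it was 277.2 kb in LEC, 98.6 kb in MEC, 326.2 kb in ACC and 276.5 kb in RSC. In all 3, ACC covered more than LEC, and MEC covered the least. MEC-only regions numbered 0, 0 and 2 in them. The clusters were chosen by LEC-only regions, which overlap no MEC H3K27ac region, so low MEC coverage follows in part from that choice.

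The largest MEC-only clusters were shorter, at chr3:152850851-153157725 with 16 MEC-only regions, chr7:124215101-124682500 with 15 and chr7:131141001-131509675 with 12. In the first, LEC full-list regions covered 46.0 kb and MEC ones 96.2 kb, against 88.1 kb in ACC and 87.4 kb in RSC. H3K4me2 there covered 32.7 kb in LEC and 0.70 kb in MEC, with 40.1 kb in ACC and 37.7 kb in RSC. In the second, H3K27ac covered 52.3 kb in LEC and 73.7 kb in MEC, with 81.8 kb in ACC and 75.8 kb in RSC. In the third, as in the first, H3K27ac covered more in MEC than in any other subregion. It covered 6.63 kb in LEC and 56.8 kb in MEC, with 5.80 kb in ACC and 24.4 kb in RSC. H3K4me2 there covered 2.58 kb in LEC and 2.30 kb in MEC, with 5.73 kb in ACC and 10.6 kb in RSC. Of its 14 MEC enhancer regions 12 were MEC-only, and LEC had 2 enhancer regions in the span. These clusters were chosen by MEC-only regions, so the higher H3K27ac coverage in MEC than in LEC follows in part from that choice.

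**Figure D5:**
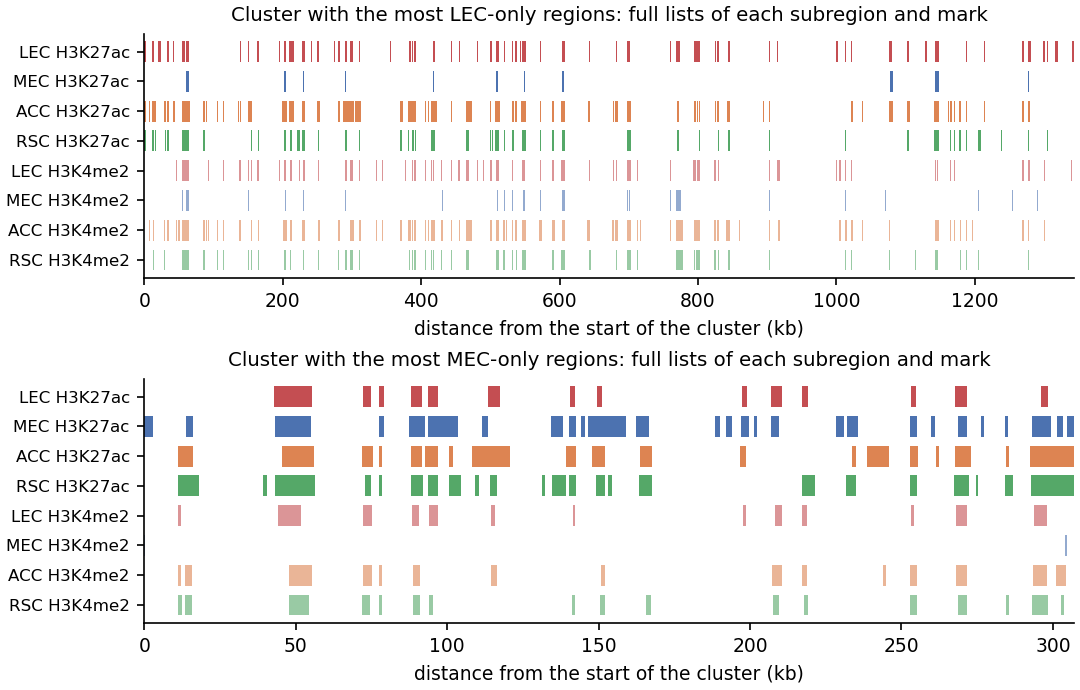
Rows show the regions of each full list along the cluster with the most LEC-only regions (top, chromosome 3, 49 regions) and the one with the most MEC-only regions (bottom, chromosome 3, 16 regions); x is the distance from the start of the cluster in kb. In the top map the MEC H3K27ac row is the sparsest of the H3K27ac rows (30.4 kb against 180.9 kb in LEC). In the bottom map the MEC H3K27ac row is the fullest of them (96.2 kb against 46.0 kb in LEC). The MEC H3K4me2 row there is nearly empty (0.70 kb). The H3K27ac contrasts between LEC and MEC follow in part from how the clusters were chosen.

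The midline areas covered the widest LEC-only regions to different extents. At chr5:113928076-113951300 an LEC region of 23.2 kb met no MEC region, while ACC covered 14.2 kb and RSC 6.78 kb of it. H3K4me2 covered 14.8 kb of it in LEC and 0 in MEC. At chr12:5243576-5266250 the LEC region was 22.7 kb wide, with 21.9 kb covered in ACC and 17.8 kb in RSC. H3K4me2 there covered 17.7 kb in LEC and 0 in MEC. The third, chr10:82561901-82583200, of 21.3 kb, was covered whole by ACC and over 11.95 kb by RSC, and MEC had 0.50 kb of H3K4me2 there. The first pair were also the widest regions with H3K4me2 of LEC and none of MEC, followed by chr2:28142726-28163600, where H3K4me2 covered 2.83 kb in LEC.

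Among LEC-only regions in neither ACC nor RSC, the widest was chr7:6810101-6824325 of 14.2 kb. LEC H3K4me2 covered 2.65 kb of it and no other H3K4me2 list reached it. The next, chr3:36223176-36234150 of 10.98 kb, had no H3K4me2 in any list. At chr13:53894226-53904625, of 10.4 kb, H3K4me2 covered 1.15 kb in LEC and 1.40 kb in ACC.

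The widest MEC-only region, chr18:16264951-16287375 of 22.4 kb, overlapped no region of either mark in any other list, MEC H3K4me2 included. The second, chr15:68320976-68342475 of 21.5 kb, was covered over 7.50 kb in ACC and 13.4 kb in RSC and had no H3K4me2 in any list. The third, chr6:135801376-135817875 of 16.5 kb, was different. H3K27ac covered 16.5 kb of it in ACC and 16.3 kb in RSC, and H3K4me2 covered 10.4 kb in LEC and 3.65 kb in MEC. It was a region with H3K4me2 and no listed H3K27ac in LEC, and it lay 19.7 kb from the broad common region on chromosome 6 described above.

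Of the other MEC-only regions in neither ACC nor RSC, chr1:146462951-146474450 of 11.5 kb and chr7:125068626-125079625 of 11.0 kb had no H3K4me2 in any list. The widest MEC-only regions with MEC H3K4me2 and none in LEC were narrower than both of these. The widths of that class as a whole were not compared. At chr15:93703851-93713400, of 9.55 kb, MEC H3K4me2 covered 0.875 kb, while H3K27ac covered 7.78 kb in ACC and 9.05 kb in RSC. At chr10:109999576-110009025, of 9.45 kb, the MEC H3K4me2 region covered 0.675 kb, while H3K27ac covered 4.13 kb in ACC and 9.30 kb in RSC. At chr3:25416176-25424650, of 8.48 kb, MEC H3K4me2 covered 4.83 kb, no H3K4me2 list of another subregion reached it, and H3K27ac elsewhere was limited to 1.70 kb in RSC.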

How the data were processed

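Chromatin immunoprecipitation and sequencing of H3K27ac and H3K4me2 was done on dissected cortex of 4 subregions. The submitters' processing notes name Bowtie (1.1.1), bedtools (2.19.0) and the build mm9. Neither labels nor headers state how peaks were called or replicates combined, and the lists give no depth. The deposited lists hold positions on a grid of 25 bp. Their score column, where present, equals the region width in every row. Of 17 lists 16 were used, since 1 repeated another.

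Autosomal regions were compared by overlaps of at least 1 bp with Python 3.11.15 and numpy 2.4.6. The overlap step was tested on simulated data, and bedtools 2.31.1 gave equal LEC-only and MEC-only counts. Wilson 95% intervals came from statsmodels 0.14.6. Regions are not replicates, so no p-values were computed. Alternatives were the cut LEC lists, an overlap of 50% of the narrower region, the enhancer list of the other division, a width of at least 1000 bp and all chromosomes. Added with results in view were the ACC and RSC enhancer lists, the ACC list cut to the RSC length and the LEC H3K4me2 list cut to the MEC length. Named regions are, for LEC-only and for MEC-only, the 3 widest, the 3 widest in neither ACC nor RSC, the 3 widest with H3K4me2 of their own and not the other division, and the 3 clusters with the most members. Named common pairs are the 3 with the most shared bases and the 2 most unequal in each direction. The members, lists and settings were chosen with earlier results of these data known.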

Additional observations from a re-analysis of the deposited data

How the results depend on the processing

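Each value was set against the counting interval of its main value. An overlap of at least 50% of the narrower region, or all chromosomes, left all 12 values within it, and no alternative run turned the order of ACC and RSC. With the LEC lists cut to the MEC length, the LEC-only share was 58.9% and the MEC-only share 46.1%. ACC and RSC H3K27ac then overlapped 81.2% and 62.5% of LEC-only regions, a difference of 18.8 points, and 60.6% and 67.4% of MEC-only regions, a difference of -6.78. LEC and MEC H3K4me2 overlapped 69.02% and 19.2% of LEC-only regions, and 33.003% and 26.6% of MEC-only regions. Against the enhancer list of the other division, the LEC-only share was 74.2% and the MEC-only share 43.7%. ACC and RSC H3K27ac then overlapped 63.02% and 69.7% of MEC-only regions, a difference of -6.64, and LEC and MEC H3K4me2 36.7% and 25.6%. For regions of at least 1000 bp, the LEC-only share was 71.8% and the MEC-only share 30.4%. ACC and RSC H3K27ac then overlapped 73.3% and 51.7% of LEC-only and 53.97% and 63.5% of MEC-only regions, and LEC and MEC H3K4me2 61.3% and 18.6% of LEC-only regions. Read by their enhancer lists, ACC and RSC overlapped 63.7% and 46.2% of LEC-only regions, a difference of 17.6, and 46.95% and 56.1% of MEC-only regions. With the ACC list cut to the RSC length, ACC overlapped 63.7% of LEC-only regions, a difference of 14.7, and 45.3% of MEC-only regions, a difference of -15.7. With the LEC H3K4me2 list cut to the MEC length, it overlapped 34.9% of LEC-only and 11.6% of MEC-only regions. LEC-only regions then mostly lacked LEC H3K4me2. Over MEC-only regions the cut LEC list lay below the 19.9% of the MEC list. The cause of these changes was not tested beyond the construction of each alternative. No paired analysis was possible because the lists hold no values per library and no test was made. Depth is unknown, so a region missing from a list cannot be told apart from one not detectable there.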

Other observations

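The sex chromosomes were left out of the sets. On chromosome X 385 of 509 LEC enhancer regions were LEC-only, or 75.6% (71.7 to 79.2), and 69 of 227 MEC enhancer regions were MEC-only, or 30.4% (24.8 to 36.7), shares near those of the autosomes. On chromosome Y the H3K27ac enhancer lists held 3 regions in LEC and 15 in MEC, with 3 in ACC and 6 in RSC. Of the 15 MEC regions 14 were MEC-only, or 93.3% (70.2 to 98.8), against 31.8% on the autosomes. Of the 3 LEC regions 2 were LEC-only. The H3K4me2 enhancer lists held 6 regions on chromosome Y in LEC and 70 in MEC, with 5 in ACC and 4 in RSC. The labels do not give the sex of the animals.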
